A study of Mus musculus with 8 samples.

Results

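AP-1 is the family of dimeric transcription factors built from Jun and Fos proteins, and the 10 genes described here are its 7 Jun and Fos subunits (Jun, Junb, Jund, Fos, Fosb, Fosl1, Fosl2) with Atf3, Egr1 and Ier3, which are switched on by many of the same stimuli. Every array probe whose gene name was 1 of these 10 symbols was taken, which gave 11 probes of 9 genes. The probe of Jund carries the older name Jund1 in the files and was added through its accession, so 12 probes of 10 genes were read, out of 41174 probes and 21637 genes tested. All 12 probes were at or above the detection limit of 5.59 on the log2 scale in all 8 samples. The genes were measured in 4 colon adenomas labelled Tcf4Het ApcHet and in 4 samples of normal colon labelled TCF4WT ApcHet, called tumors and normals below. All 8 samples are from C57BL/6 mice with 1 mutant copy of Apc, the gene of a scaffold protein that targets beta-catenin for breakdown, and the protocol names the Min allele and littermates of both Tcf4 genotypes. Tcf4 is the older name of Tcf7l2, a DNA-binding partner of beta-catenin. The tumors carry 1 mutant copy of it and the normals none, so tumor state and Tcf4 genotype cannot be told apart. The titles call the animals adult and give no age, and RNA came from the last 2.5 cm of the colon, 1 sample per array. Nothing in the labels says that the samples of a group came from separate mice, so the p-values below measure the spread between these samples.

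Immediate early genes are transcribed within minutes of a growth factor, cytokine or stress signal, without new protein synthesis, because the factors that switch them on are already present in the cell. MAP kinases phosphorylate these factors and also the Jun and Fos proteins, and most of the transcripts are short-lived. Jun proteins pair with each other or with Fos proteins, while Fos proteins need a Jun partner, so the makeup of AP-1 depends on which subunits a cell holds. In the mouse intestine, loss of Jun is known to reduce the growth of tumors caused by mutant Apc.

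The values are from the authors' log2 table, in which each column names its sample. Only 4 of its 8 columns could be traced to a deposited scanner file, and only tumor 1 to the file of its own sample, so the labels of the table and of the scanner files disagree. The scanner values taken as filed gave no call among 21678 genes in limma (433 at an unadjusted p under 0.05), and no gene of the family reached an unadjusted p under 0.05 there, so every result below rests on the labels of the table. Normal 3 stood apart from its group. Its Pearson correlation over all genes was 0.947 to 0.965 with each tumor but 0.872 to 0.941 with normals 1, 2 and 4, so each difference is given with and without it. The other normals were not 1 tight group either. Normals 2 and 4 correlated at 0.987, but normal 1 reached only 0.940 and 0.938 with them, within its range with the tumors (0.925 to 0.956). Markers of intestinal epithelium such as Epcam and Krt8 and of the distal colon such as Hoxb13 were bright in both groups. The log2 mean of 8 epithelial markers ran from 16.95 to 17.24 in tumors and from 17.29 to 17.72 in normals, and 4 of 6 distal colon markers were lower in tumors. The distal colon mean of normal 3 was 16.55, within the other normals (16.42 to 16.83) and above the tumors (14.36 to 15.66). Its mean of small intestine markers, 12.54, was the highest of all 8 samples.

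Ier3, Egr1 and Jun were higher in tumors than in normals in the limma fit across all genes, by 9.74-fold, 2.67-fold and 1.87-fold. These 3 of 10 genes passed the threshold of 0.05 on the adjusted p, all upwards, beside 14.5% of all genes tested in either direction and 7.00% upwards. Junb also had every tumor above every normal, which made 4 of 10 genes with groups that did not overlap and higher tumors, against 11.9% of all genes (23.8% in either direction). None of the 10 passed downwards (7.54% of all genes did), although the estimate for Fos was negative, with the lowest normal, normal 3, inside the tumor range. The median difference over the 10 genes was 0.67 on the log2 scale, beside 0.15 over all genes. Without normal 3 the calls were 7 of 10, with Fos lower and Jun, Junb, Fosb, Fosl1, Egr1 and Ier3 higher, but then 51.5% of all genes passed, 31.7% upwards and 19.8% downwards. With equal numbers treated as pairs (replicate block), only Ier3 passed, beside 8.69% of all genes (3.61% upwards and 5.08% downwards). No gene of the 10 passed without tumor 1, tumor 2, tumor 3, normal 1, normal 2 or normal 4, with 6 of the 10 at an unadjusted p under 0.05 in each of these fits, beside 24.0% to 28.3% of all genes. In the fit of all 8 samples it was also 6 of 10, beside 32.4% of all genes. The lowest adjusted p of the 10 genes in those 6 fits lay between 0.0537 and 0.0684.

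**Figure D1:**
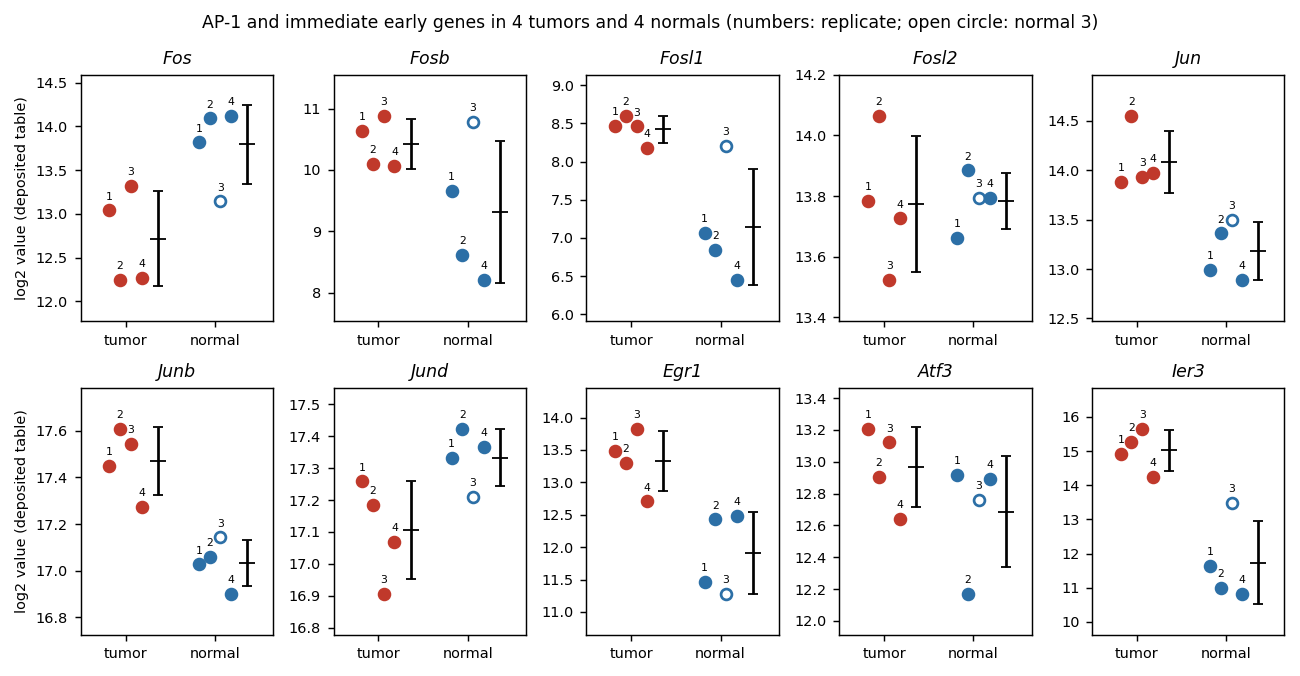
Log2 values of the 10 genes in the deposited table (y axis, its own range per gene) for tumors 1 to 4 in red and normals 1 to 4 in blue, numbered by replicate, with normal 3 as an open circle and group mean ± SD in black (n = 4 each). Ier3, Egr1, Jun and Junb have all tumors above all normals, while normal 3 lies near or among the tumors for Fos, Fosb and Fosl1.

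The promoters of Jun and Fos are shown because these subunits of the classical AP-1 dimer stood on opposite sides of 0 in the fit, and that of Ier3 because it had the largest difference. Each is the 250 bases before the RefSeq start (GRCm38.p6), read along the gene's own strand, with the letters found by the motif search in capitals. They are Jun at chr4:95052223-95052472 on the minus strand, Fos at chr12:85473640-85473889 on the plus strand and Ier3 at chr17:35821463-35821712 on the plus strand.
Jun: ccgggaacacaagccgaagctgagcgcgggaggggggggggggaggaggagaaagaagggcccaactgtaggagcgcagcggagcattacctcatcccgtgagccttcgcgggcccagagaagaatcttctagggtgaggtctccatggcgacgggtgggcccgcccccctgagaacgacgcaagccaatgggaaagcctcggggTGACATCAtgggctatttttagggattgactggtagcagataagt
Fos: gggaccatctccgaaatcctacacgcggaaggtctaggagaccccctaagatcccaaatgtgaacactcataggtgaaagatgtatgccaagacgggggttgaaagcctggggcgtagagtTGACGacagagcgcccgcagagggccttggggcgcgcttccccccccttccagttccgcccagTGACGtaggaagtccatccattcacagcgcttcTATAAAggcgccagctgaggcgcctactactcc
Ier3: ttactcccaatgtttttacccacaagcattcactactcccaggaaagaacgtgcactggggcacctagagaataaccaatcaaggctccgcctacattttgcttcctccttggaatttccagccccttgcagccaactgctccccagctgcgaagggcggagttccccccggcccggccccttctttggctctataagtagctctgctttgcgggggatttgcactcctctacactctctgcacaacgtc
The capitals in Jun are TGACATCA, the AP-1-like site known from its promoter, 45 to 38 bases before the start, which 2.93% of 32851 RefSeq promoters of this length hold. Those in Fos are TGACG, the core of the cyclic AMP response element, starting at 129 and at 66 bases before the start, and TATAAA, the TATA box, starting at 33. TGACG was found in 17.8% of promoters and in 4 of the 8 family promoters in the table (Atf3, Fos, Fosb, Junb), and TATAAA in 12.4% and in Fos alone. TGACATCA was in Jun alone. The AP-1 site TGANTCA (6.75% of promoters), the full cyclic AMP element TGACGTCA (1.55%), the TCF core ATCAAAG (3.21%) and the serum response element, known as the CArG box (1.47%), were in none of the 8. Both strands were searched, TGACG lies within TGACGTCA, and a missing match says only that those letters are not in this window.

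Jun, a subunit that can form AP-1 without a Fos protein, had log2 values of 13.88, 14.55, 13.93 and 13.97 in tumors 1 to 4, against 12.99, 13.36, 13.49 and 12.89 in normals 1 to 4. All tumors lay above all normals, tumor 2 was the highest of them, and normal 3 was the closest normal to the tumors. The means were 14.08 ± 0.31 in tumors and 13.18 ± 0.29 in normals (SD, n = 4 each). The difference was 0.90 ± 0.22 (SE) with a limma adjusted p of 0.0345, or 0.0501 with the replicate block. Without normal 3 it was 1.01 ± 0.22 with an adjusted p of 0.0132, the only fit without 1 sample in which Jun passed. The probe lies on chromosome 4 at 94541191 to 94541250, minus strand (mm8, as all probe positions here). It is printed at 10 spots per array, and the SD over these spots was 0.016 to 0.057 log2 units on the 4 traced arrays, which measures the array alone and not the spread between samples.

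Junb, a Jun protein that can restrain Jun in dimers, was measured on chromosome 8 by 2 probes at 87867049 to 87867108 and 87867087 to 87867146, which overlap and so are not independent. The brighter one gave 17.45, 17.61, 17.54 and 17.27 in tumors, against 17.03, 17.06, 17.14 and 16.90 in normals. Every tumor was above every normal, with little spread in either group. The difference was 0.44 ± 0.13, with a limma adjusted p of 0.0616 (0.0265 without normal 3, at 0.47 ± 0.14). In the fit without normal 3, 51.5% of all genes passed. The other probe had no overlap either and gave 0.50 ± 0.15, with an adjusted p of 0.065 in a fit of all 31870 kept probes, of which 13.4% passed (5.62% upwards and 7.83% downwards). Jund, the Jun protein that most cells make without a stimulus, went the other way in its point estimate. Its values were 17.26, 17.19, 16.91 and 17.07 in tumors, against 17.33, 17.42, 17.21 and 17.37 in normals. Tumor 1 lay above normal 3, the only overlap. The difference of -0.23 ± 0.13 did not pass the test (adjusted p = 0.222, or 0.132 without normal 3 at -0.27 ± 0.13). Its probe is on chromosome 8 at 73629526 to 73629585.

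Fos, the classical partner of Jun, had values of 13.04, 12.24, 13.32 and 12.27 in tumors, against 13.82, 14.09, 13.14 and 14.12 in normals. Normals 1, 2 and 4 lay above every tumor, and normal 3 lay between tumors 1 and 3. The means were 12.72 ± 0.55 in tumors and 13.79 ± 0.45 in normals (SD, n = 4 each), a difference of -1.08 ± 0.33, and the limma adjusted p was 0.0682 (0.111 under the replicate block). Without normal 3 the difference was -1.29 ± 0.30, 2.45-fold lower in tumors, with an adjusted p of 0.0165. The same gene passed in the limma fit with an intensity trend (adjusted p = 0.0401), where 18.5% of all genes passed. It also passed in that with array weights (adjusted p = 0.0068), where 65.7% did. Of the 8 fits without 1 sample only that without normal 3 called Fos, and there 51.5% of all genes passed. With the scanner values as filed its difference was 0.0020, and with those of the 4 traced arrays it was -1.33. Its probe, on chromosome 12 at 86366053 to 86366112, is also printed at 10 spots per array, with an SD over spots of 0.028 to 0.059. Log2 means of 6 smooth muscle markers, another tissue in the colon wall, ran from 14.92 to 16.05 in tumors and from 14.55 to 16.80 in normals, with normal 3 the lowest of all 8 samples. Normal 3 was also the lowest for the means of fibroblast (12.18), endothelial (9.03), B and plasma cell (9.67) and macrophage (10.74) markers, but not of neutrophil markers. The part of these cells in the Fos values was not tested.

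Fosb and Fosl1, Fos family members that pair with Jun proteins and, in the case of Fosl1, lack the strong activation domain of Fos, each had one normal sample, normal 3, at the level of the tumors. Fosb was 10.64, 10.10, 10.88 and 10.07 in tumors, against 9.66, 8.61, 10.79 and 8.20 in normals. Only normal 3 overlapped the tumors, where it was the second highest value of all 8. The difference was 1.11 ± 0.55 (adjusted p = 0.194), and 1.60 ± 0.38 (3.03-fold, adjusted p = 0.0176) without normal 3. Fosl1 was 8.47, 8.60, 8.46 and 8.18 in tumors, against 7.06, 6.85, 8.21 and 6.45 in normals. Tumor 4 lay just below normal 3, which was the only overlap. The difference was 1.29 ± 0.36 (adjusted p = 0.0518), and 1.64 ± 0.19 (3.12-fold, adjusted p = 0.00226) without normal 3. In the fit without normal 3, 51.5% of all genes passed, 31.7% upwards. Fosl1 was dim, and its probe was not well above background on the array traced to normal 1, where background probes reached 7.70 at their 95th percentile. Its probe lies on chromosome 19 at 5455496 to 5455555, and that of Fosb on chromosome 7 at 18461650 to 18461709.

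Fosl2, a Fos family member known for its part in bone formation and fibrosis, showed no difference on its brighter probe. That probe, on chromosome 5 at 32433832 to 32433891, gave 13.78, 14.07, 13.52 and 13.73 in tumors, against 13.66, 13.88, 13.79 and 13.80 in normals. The tumors spread on both sides of the normals, and the difference was -0.01 ± 0.15 (adjusted p = 0.964, and 0.977 without normal 3). The dimmer probe, at 32429296 to 32429355, gave 7.70, 8.65, 7.51 and 8.08 in tumors, against 8.97, 8.42, 8.16 and 8.92 in normals, a difference of -0.63 ± 0.30 (adjusted p = 0.181 in the fit of all kept probes). The probes therefore gave different point estimates, and neither passed.

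Atf3, a stress-induced factor that binds AP-1 and cyclic AMP elements, was 13.21, 12.91, 13.12 and 12.64 in tumors, against 12.91, 12.17, 12.76 and 12.89 in normals. The groups overlapped, with tumor 4 below normals 1, 3 and 4 and tumor 2 just below normal 1, and the difference of 0.28 ± 0.22 did not pass (adjusted p = 0.334; without normal 3 it was 0.31 ± 0.24, adjusted p = 0.307). Its probe is on chromosome 1 at 192871283 to 192871342.

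Egr1, a zinc finger factor that MAP kinase signals switch on through serum response factor, was 13.49, 13.30, 13.82 and 12.71 in tumors, against 11.46, 12.43, 11.28 and 12.48 in normals. All tumors lay above all normals, with tumor 4 nearest to them, and normal 3 was the lowest value here. The means were 13.33 ± 0.47 in tumors and 11.91 ± 0.63 in normals (SD, n = 4 each). The difference of 1.42 ± 0.36 had a limma adjusted p of 0.0412, or 0.0933 with the replicate block. Without normal 3 it was 1.21 ± 0.35 (adjusted p = 0.0271). Across the 8 fits without 1 sample the difference was 1.21 to 1.62, with adjusted p between 0.0271 and 0.116, and the call held without normal 3 and without tumor 4. The probe lies on chromosome 18 at 34990715 to 34990774.

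Ier3, which protects cells from death signals and is a target of NF-kappaB and p53, was 14.93, 15.26, 15.65 and 14.25 in tumors, against 11.64, 10.99, 13.49 and 10.83 in normals. The tumors were all above the normals by a wide gap, and the smallest gap was the one to normal 3. The means were 15.02 ± 0.59 in tumors and 11.74 ± 1.22 in normals (SD, n = 4 each). The difference of 3.28 ± 0.61, 9.74-fold, had an adjusted p of 0.0204 (0.0361 with the replicate block), and 99.4% of all genes had a smaller one. Without normal 3 it was 3.87 ± 0.36, 14.6-fold, with an adjusted p of 0.00109. It passed in the fits without normal 3 and without tumor 4, and missed the threshold without each of the other 6 samples, with adjusted p up to 0.0684. Its probe is on chromosome 17 at 35430636 to 35430695.

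**Figure D2:**
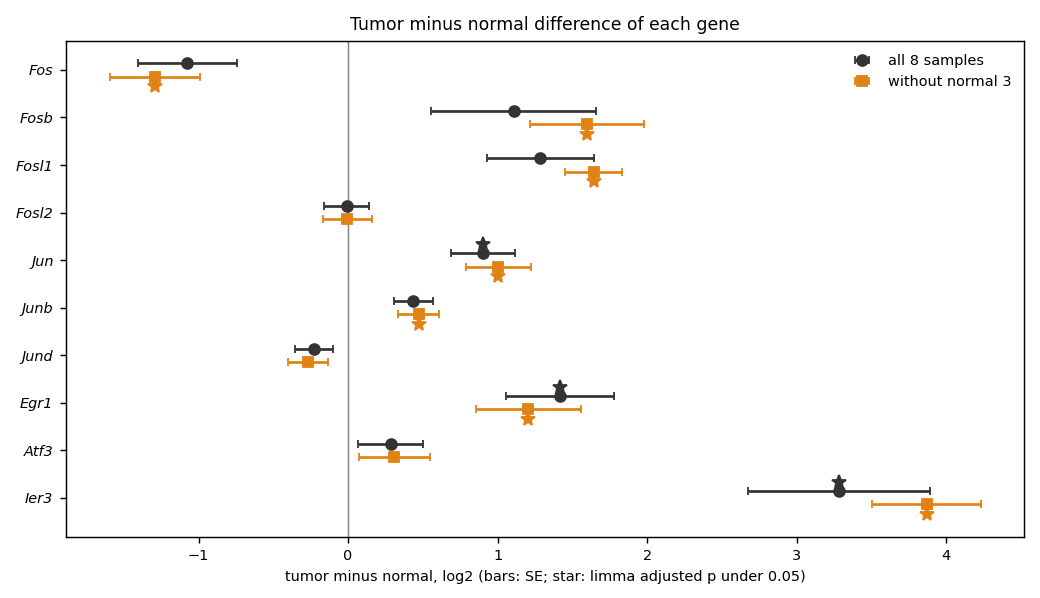
Tumor minus normal difference (log2, x axis) of each gene from the limma fit of all 8 samples (dark circles) and of the 7 samples without normal 3 (orange squares), with bars of 1 SE and a star where the adjusted p was under 0.05. Ier3 was the largest at 3.28, and Fosb was 1.60 and Fos -1.29 without normal 3, beside 1.11 and -1.08 with all 8 samples.

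Within pairs of equally numbered samples, the differences of Ier3 were 3.28, 4.27, 2.16 and 3.42 in pairs 1 to 4, those of Jun 0.89, 1.19, 0.44 and 1.09, and those of Junb 0.42, 0.55, 0.40 and 0.37. Egr1 gave 2.03, 0.87, 2.54 and 0.23, with a smaller value in pairs 2 and 4 than in pairs 1 and 3. Fos gave -0.78, -1.85, 0.18 and -1.85, positive only in pair 3, the pair that holds normal 3. In pair 3 Fosb and Fosl1 also had their smallest differences, 0.10 and 0.25, beside 0.98 to 1.86 and 1.40 to 1.76 in the other pairs. Pair 1 lies within slide 1 and pair 2 within slide 2 of the traced arrays, so these pairs are within-slide comparisons. The tumor was higher in all 4 pairs for 6 of the 10 genes (Jun, Junb, Fosb, Fosl1, Egr1, Ier3) and lower in all 4 for Jund. The samples of a pair differ in Tcf4 genotype, so they are not from 1 mouse, and what equal numbers share is not known.

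**Figure D3:**
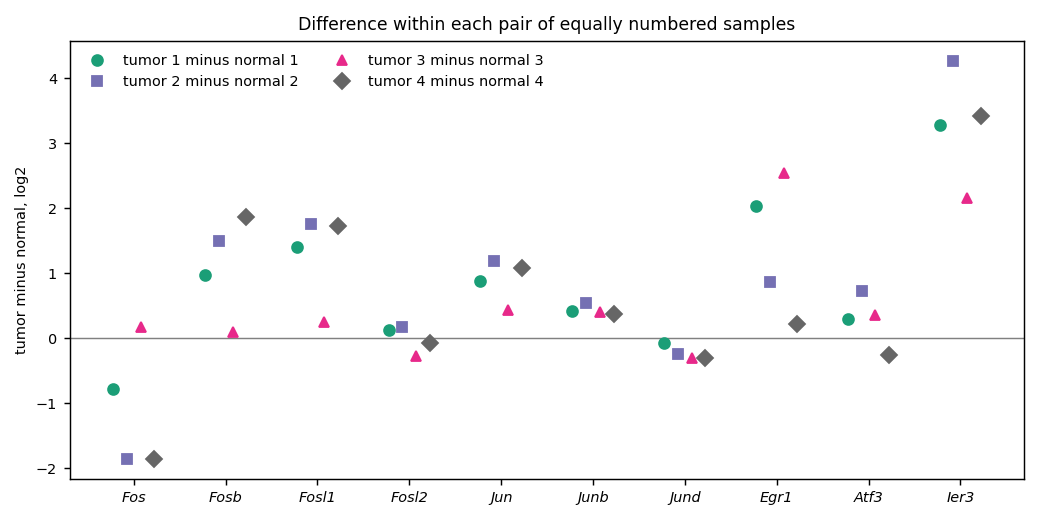
Tumor minus normal difference (log2, y axis) within each pair of equally numbered samples for the 10 genes (x axis). Fosb, Fosl1 and Ier3 have their smallest value in pair 3 (triangles), at 0.10, 0.25 and 2.16, while Egr1 has its largest there, 2.54.

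Markers of infiltrating cells moved with the groups and, for neutrophils, with normal 3. All 8 neutrophil markers rose, S100a8 by 5.41 and Il1b by 4.64 log2 units, and their log2 mean was 11.68 to 13.30 in tumors and 6.72 to 10.33 in normals, with normal 3 the highest normal. Without normal 3 the normals ran from 6.72 to 8.71, and the markers Cxcr2 and Mmp8 were below the detection limit in 3 of 8 samples. Of 8 macrophage markers 6 rose (C1qa by 1.83), and their log2 mean was 12.45 to 12.68 in tumors and 10.74 to 11.54 in normals, with normal 3 the lowest. Of 6 heat shock genes 2 rose, Hspb1 by 1.77 and Hsph1 by 1.49, with a log2 mean of 15.14 to 16.32 in tumors, where tumor 2 was the highest, and of 14.37 to 14.87 in normals. In bulk tissue more cells of a type and more RNA per cell cannot be told apart, and the part of these cells or of handling stress in the values of the 10 genes was not tested. No list of 6 fibroblast, 6 B and plasma cell or 6 smooth muscle markers had a gene that passed, while 3 of 8 T and NK cell and 1 of 4 endothelial markers rose.

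Other immediate early transcription factors gave 3 of 18 genes higher and 1 lower, beside 7.00% and 7.54% of all genes, with a median difference of 0.60 (0.15 over all genes). Nr4a2 (1.47 ± 0.36, adjusted p = 0.037) and Nr4a1 (1.19 ± 0.23, adjusted p = 0.0219), orphan nuclear receptors, rose, as did the growth regulator Myc (1.04 ± 0.27, adjusted p = 0.0438). Nr4a1 was 14.48, 14.20, 13.91 and 13.58 in tumors, against 12.76, 13.13, 12.55 and 12.99 in normals, so normal 3 was the lowest here as for Egr1. Klf4, a factor of differentiated gut epithelium, fell by 1.27 ± 0.23 (adjusted p = 0.0199). Srf, which encodes serum response factor, had a difference of 0.09 and Klf10 one of 0.14, and neither passed. With the replicate block only Nr4a1 and Klf4 passed, and without normal 3 there were 5 genes higher and 1 lower, beside 31.7% and 19.8% of all genes. None of the 18 passed without tumor 2, tumor 3, normal 1, normal 2 or normal 4, only 1 (lower) without tumor 1, and 2 higher and 1 lower without tumor 4. Without tumor 3 just 21 of all genes passed, and no gene of this list or of the lists below, although 4 of these 18 had an unadjusted p under 0.05 in limma.

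Among signal and RNA decay regulators of the immediate early class, 8 of 29 genes rose and 4 fell, beside 7.00% and 7.54% of all genes, and the median difference of 0.16 was close to the 0.15 of all genes. The MAP kinase phosphatases Dusp4 (2.33 ± 0.46, adjusted p = 0.0228) and Dusp2 (1.36 ± 0.33, adjusted p = 0.0349), the ERK-regulated Phlda1 (2.19 ± 0.32, adjusted p = 0.0149) and the matrix protein Ccn1 (1.53 ± 0.22, adjusted p = 0.0149) rose most. Sgk1, a kinase of sodium uptake, fell by 1.68 ± 0.33 (adjusted p = 0.0228). Plk3 fell by 0.86, the growth inhibitor Btg1 by 0.65 and the stress gene Gadd45a by 0.63. Zfp36, whose protein destroys AU-rich mRNAs, had a difference of -0.04 and Errfi1, a brake on EGFR, one of 0.04. With the replicate block 5 passed upwards and only Sgk1 downwards, while Dusp2, Plk3, Btg1 and Gadd45a missed the threshold (adjusted p of 0.0866, 0.0762, 0.0623 and 0.0512), as Dusp4 did narrowly. Without normal 3 the counts were 10 higher and 6 lower, near the 31.7% and 19.8% of all genes. They were 0 without tumor 3 (14 at an unadjusted p under 0.05), 1 higher without normal 4, 2 higher without tumor 2 or normal 1, 3 higher without normal 2, 2 higher and 2 lower without tumor 1, and 6 higher and 1 lower without tumor 4.

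Of 19 other leucine zipper proteins, some of which can pair with Jun or Fos proteins, 5 rose and 1 fell. This stood beside 7.00% and 7.54% of all genes, with a median of 0.20. Crem (1.70 ± 0.18, adjusted p = 0.0112), whose products bind cyclic AMP elements, was 12.05, 12.34, 12.08 and 11.92 in tumors, against 10.27, 10.33, 10.81 and 10.16 in normals. Batf (1.22 ± 0.23, adjusted p = 0.0215), a Jun partner in lymphocytes and other immune cells, Jdp2 (0.98 ± 0.14, adjusted p = 0.0149), a repressor that binds Jun, and Batf3 (0.85 ± 0.20, adjusted p = 0.0323) also rose. Mafk fell by 0.48 ± 0.12 (adjusted p = 0.0345). Atf6 had a difference of 0.06 and did not pass. With the replicate block 3 passed upwards and none downwards, with Batf3 at an adjusted p of 0.0531 and Mafk at 0.0752, and without normal 3 the counts were 7 higher and 3 lower, near the 31.7% and 19.8% of all genes. No gene passed without tumor 3 (9 at an unadjusted p under 0.05), and 1 to 3 passed, all higher, without each of the other 6 samples.

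Kinases and factors upstream of Fos and Jun gave 1 of 21 higher and 4 lower, beside 7.00% and 7.54% of all genes, with a median of -0.34. Elk3, a partner of serum response factor, rose by 1.82 ± 0.26 (adjusted p = 0.0149). The MAP kinase kinase Map2k1 fell by 1.09 ± 0.19 (adjusted p = 0.0192), and the kinases Rps6ka3, Mapk3 and Mapk8 fell by 0.52, 0.52 and 0.46. Map3k1 had a difference that rounded to 0.00 and did not pass. Under the replicate block Elk3 and Map2k1 kept their calls, and Rps6ka3, Mapk3 and Mapk8 did not (adjusted p of 0.0603, 0.0764 and 0.088). Rps6ka5, named here after its values were seen, passed downwards under the block (adjusted p = 0.0487) but not in the fit without it (-1.15 ± 0.40, adjusted p = 0.0925). Without normal 3 the counts were 2 higher and 10 lower, beside 31.7% and 19.8% of all genes. No gene passed without tumor 3 or normal 4 (5 at an unadjusted p under 0.05 in each fit), 1 passed upwards without each of the other 5 samples, and 1 downwards without tumor 1 or tumor 4.

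Genes described in the literature as AP-1 targets had the highest median difference of the 5 lists, 2.84. Of the 23 genes, 17 were higher and 1 lower, beside 7.00% and 7.54% of all genes. The list was written with earlier results of these data known, so its count and rank are a description only. Mmp10 (6.40 ± 1.28, adjusted p = 0.0231), a matrix protease, was 14.89, 16.06, 16.25 and 15.75 in tumors, against 8.50, 8.74, 13.36 and 6.76 in normals. Normal 3 was far above the other normals for it, and also for Mmp13 (4.83 ± 0.94, adjusted p = 0.0218), the secreted phosphoprotein Spp1 (5.01 ± 0.93, adjusted p = 0.0204) and the cytokine Il11 (4.77 ± 0.65, adjusted p = 0.0145). Ezr, a linker of the membrane to actin, fell by 0.72 ± 0.20 (adjusted p = 0.0489). Hbegf at 0.12 and Vegfa at 0.33 did not pass. With the replicate block 14 passed upwards and none downwards, with Ezr at an adjusted p of 0.072, and without normal 3 the counts were 19 higher and 1 lower, beside 31.7% and 19.8% of all genes. The number higher was 0 without tumor 3 (18 at an unadjusted p under 0.05), 3 without tumor 2, 4 without normal 1 or normal 4, 6 without normal 2, 8 without tumor 1 and 11 without tumor 4, with none lower in these fits. Many of these genes are also made by neutrophils and macrophages, whose markers moved with the groups as given above, and their part here was not tested.

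**Figure D4:**
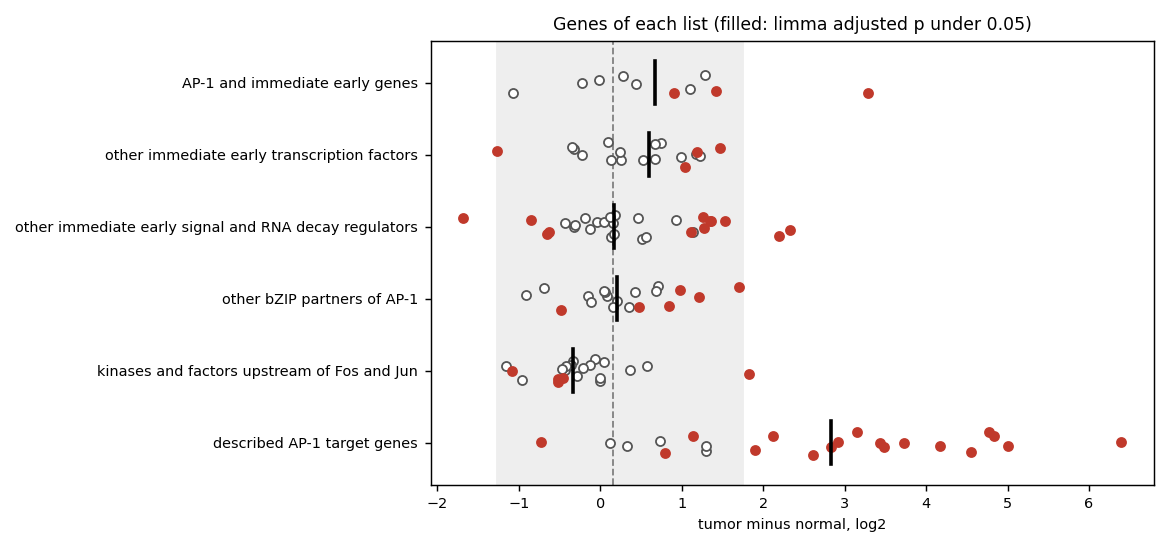
Tumor minus normal difference (log2, x axis) of every gene of the 10 genes described here and of the other lists (rows), filled where the limma adjusted p was under 0.05, with the median of each row as a black bar. The grey band spans the 5% and 95% quantiles of all genes (-1.26 and 1.75) and the dashed line is their median of 0.15. The described AP-1 targets lie furthest to the right, at a median of 2.84. The lists were written with earlier results of these data known.

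The profile over the 8 samples, each gene centred on its mean, was compared by root mean square distance in log2 units, which weighs the same samples as the fit and is a description only. For Egr1 the nearest gene was Dusp2 at 0.23, for Ier3 it was Sema7a at 0.21, for Fosl1 Gsap at 0.12 and for Jun Heatr1 at 0.10. Fosb lay nearest to Vmn1r216 (0.09), Junb to Psmd12 (0.05), Jund to Sh2b1 (0.05), Fosl2 to Kpna1 (0.05) and Atf3 to Rapsn (0.13). The second nearest were Pygl for Egr1, Ifitm7 for Ier3, Slc7a5 for Fosl1, Pik3ap1 for Jun, Slc4a5 for Fosb, Rassf3 for Jund, Pus7 for Fosl2 and Apba2 for Atf3. A flat profile has small distances to many genes, so the values do not compare between genes. The 2 nearest of Fos were transcripts that the files name by accession alone. Among the 10 genes themselves, Fosl2 and Jund lay nearest to each other (0.16), as did Fosb and Fosl1 (0.39). The distance between Fosl2 and Jund is about the size of their own centred profiles (0.15 and 0.16), so it shows no particular likeness. The nearest of the family was Fosl2 for Junb (0.27), Junb for Atf3 (0.28) and for Jun (0.31), Jun for Egr1 (0.65) and Fosl1 for Ier3 (1.08). For Fos it was Jund at 0.61, with 4031 other genes nearer. For the rest of the family, from 643 (Fosl2) to 3686 (Junb) other genes were nearer than the nearest member. The centred profiles of Junb, Atf3 and Fosl2 measure 0.24, 0.30 and 0.15. The distances of Junb to Atf3 and to Fosl2 are about as large or larger, so they show no particular likeness either.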

How the data were processed

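RNA of 4 tumors and 4 normals was labelled with Cy3 and hybridised to 1-colour Agilent arrays (design 014868, per the file headers). The log2 values used here are from the table that the authors deposited with 1 column per sample. All its columns share the median 8.51 and the 75th percentile 11.40, which points to quantile normalisation, but no source used here states it. Spot intensity values in the scanner files were background-subtracted and detrended by Agilent Feature Extraction 9.5.1.1, per the file headers, while the submitters' processing notes name version 10.1.1.1. A column was traced to a scanner file where the Spearman correlation was 1. The columns of tumors 1 and 2 matched the files under tumor 1 and normal 4, and those of normals 1 and 2 the files under normals 2 and 3. The unmatched columns reached at most 0.989. The design names the log2 table for the main fit because of this mismatch, which was known from earlier work on these data.

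Probes at or above 5.59 in at least 4 of 8 columns were kept (31870 of 41174). Probes that the scanner did not flag as well above background had a 95th percentile of 4.50 and 5.35 in tumors 1 and 2 and of 7.70 and 5.82 in normals 1 and 2, and the limit is their median. The brightest kept probe stood for a gene. Names came from RefSeq GRCm38.p6, where accessions matched 24375 probes, symbols 6301 and synonyms another 2426, while 8072 kept the file's name. The test was limma's 2-sided moderated test (version 3.58.1, R 4.3.3), and p-values were adjusted after Benjamini and Hochberg across 21637 genes and read at 0.05. The script was tested on simulated data. Precision is limited by 4 arrays per group. Deviations from the group means of equally numbered samples correlated at 0.24 to 0.53 in all 4 pairs (-0.51 to 0.38 in 12 other pairs). Tumor 1 correlated more with normal 3 (0.28) than with normal 1 (0.24). Tumor 4 correlated more with normal 2 (0.38) than with normal 4 (0.36). These values do not settle the pairing, so the numbers were taken to pair the samples only in the replicate block and the pair differences. The genes and lists were chosen with earlier results of these data known. Named from each list were up to 4 called genes in each direction by size, with 2 uncalled genes of the smallest difference, and for each of the 10 genes the 2 nearest profiles. Some genes that this rule names are not reported here. The alternatives were the replicate block, other filters and probe rules, median centring, an intensity trend, array weights, the scanner values, and leaving out each sample.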

Additional observations from a re-analysis of the deposited data

Results flagged for a closer look

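Jun in tumor 2 was 14.55 on the log2 scale, above 13.88 to 13.97 in the other tumors. Its gap to the nearest tumor was 0.861 of the range of the group, over Dixon's 95% critical value for 4 samples. This was 1 flag among 24 groups tested, where chance flags about 1 in 20. The log2 mean of the heat shock markers was also highest in tumor 2, at 16.32 against 15.14 to 15.46 in the other tumors, and their part in the Jun value was not tested. Without tumor 2 the limma difference of Jun was 0.75, with an adjusted p of 0.0803.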

How the results depend on the processing

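Relative to 3147 of 21637 genes called with all 8 samples in limma, the counts were 1881 with the replicate block and 14210 with array weights. They were 0 with the scanner values as filed, with normexp, with the slide as a block, with the traced scanner files and with the traced columns alone. At an unadjusted p under 0.05 these 5 fits had 433, 510, 326, 4121 and 4817 genes. The fits of the traced scanner files and of the traced columns held only tumors 1 and 2 and normals 1 and 2. Leaving out 1 sample at a time gave 21 to 11136 genes, lowest without tumor 3 and highest without normal 3. It gave 855, 379 and 1863 without tumors 1, 2 and 4, and 556, 620 and 160 without normals 1, 2 and 4.

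Of the 10 genes, 3 were called, all higher. The replicate block left 1 (Ier3), as did median centring (adjusted p of 0.0185 for Ier3, 0.0534 for Jun and 0.0614 for Egr1). Median centring takes off a shift of 0.13 (median over genes) and moved the split of all calls to 34.7% higher, against 48.1% in the uncentred fit. The stricter filter called 5 genes, all 5 higher, beside 20.9% of all genes, the intensity trend 5 (4 higher) beside 18.5% and array weights 7 (6 higher) beside 65.7%. No filter left 2, beside 8.58%. The 5 fits with scanner values or traced columns called 0, in either direction or higher, with 0, 0, 0, 4 and 5 of the 10 at an unadjusted p under 0.05. Leaving out 1 sample gave 0 to 7 called and 0 to 6 called higher.

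The signs of 4 genes turned with the scanner values as filed, to 0.0020 for Fos, 0.068 for Fosl2, -0.36 for Jun and -0.26 for Atf3, and a slide block left these estimates as they were. With normexp they were 0.017, 0.058, -0.35 and -0.23. With the scanner values of the 4 traced arrays Fos was -1.33, Jun 0.99 and Atf3 0.45, each with its sign in the log2 table. Fosl2 was 0.14 with the traced scanner files and 0.15 with the traced columns, and -0.11 to 0.074 over the fits without 1 sample (0.074 without tumor 3, 0.0063 without tumor 4 and 0.024 without normal 2). The cause of these changes was not tested. In the log2 table Ier3 stayed between 2.98 and 3.87, Jun between 0.75 and 1.01 and Egr1 between 1.21 and 1.62 when a sample was left out. Signals near background limit Fosl1. The dimmer Fosl2 probe had low values too (7.51 to 8.97) but was well above background on each traced array.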
